A study of Mus musculus with 6 samples.

Results

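The genes of the mouse mitochondrial genome were described in marrow monocytes taken from 2 bones of the mouse, the mandible and the femur. Every gene of the count table whose symbol begins with mt- was taken, which gave 37 of 57010 genes, namely 13 protein-coding genes, 2 ribosomal RNA (rRNA) genes and 22 transfer RNA (tRNA) genes. The marrow came from C57BL/6 mice (C57Bl/6J in the methods) 1 year old, and there were 3 femur libraries (S13, S15 and S18) and 3 mandible libraries (S16, S19 and S23). In both groups an antibody kit with magnetic beads removed other marrow cells and the unbound cells were kept, and no culture or treatment is named before RNA was taken. The methods name male and female mice for the experiment without giving the sex, the animal or the number of pooled animals for a library, so the p-values below measure the spread between these libraries.

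Mitochondria carry a small circular genome of their own, which is copied into long transcripts from both strands and then cut at the tRNAs that lie between most of the mRNAs and rRNAs. The 2 rRNAs form the mitochondrial ribosome with proteins imported from the cytosol, and this ribosome translates only the mitochondrial mRNAs. Every protein made there is a subunit of the respiratory chain or of ATP synthase, and each of these complexes also needs subunits encoded in the nucleus. Monocytes are the marrow cells from which osteoclasts form, and osteoclasts are rich in mitochondria.

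The 37 genes lie side by side on chromosome MT, and the intervals of all 37 in the count table were equal to those of GENCODE M21, an annotation of GRCm38. mt-Nd6 and 8 of the tRNA genes lie on the minus strand of the reference and the rest on the plus strand. The sources used here do not say if reads were counted by strand, so reads of mt-Nd6 and of transcripts that run through it on the other strand cannot be told apart. Some neighbours also share bases. mt-Atp8 and mt-Atp6, which encode the small and the large mitochondrial subunit of the ATP synthase membrane part, share 43 bases, mt-Nd4l and mt-Nd4 share 7, and the ends of mt-Nd5 and mt-Nd6 share 14 on opposite strands. These junctions are printed from the M21 transcripts, plus strand, 5′ to 3′, with the shared bases in capitals, because reads over them can belong to either gene. They lie at chrMT:7918-7978, chrMT:10152-10188 and chrMT:13540-13577.
mt-Atp8/mt-Atp6 junction: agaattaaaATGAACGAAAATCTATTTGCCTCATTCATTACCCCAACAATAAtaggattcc
mt-Nd4l/mt-Nd4 junction: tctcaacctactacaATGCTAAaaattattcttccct
mt-Nd5/mt-Nd6 junction: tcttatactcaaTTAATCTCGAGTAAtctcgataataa

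Annotated copies of mitochondrial DNA inserted into chromosome 1 bear on the counts of 7 of the 13 mRNAs. Of the others, mt-Nd2 and mt-Nd5 share part of their sequence with annotated transcripts elsewhere in the nucleus. In M21 the pseudogenes Gm29216, Gm28661, Gm10925, Gm28437, Gm28438, Gm10222 and Gm28439, which correspond to mt-Co1, mt-Co2, mt-Atp6, mt-Co3, mt-Nd3, mt-Nd4l and mt-Nd4, lie in this order on the minus strand of chromosome 1 within 4663 bases (chr1:24611535-24616197). Between Gm28661 and Gm10925 lies a gap of 233 bases, the place of mt-Atp8 in this order. The gap was not compared, so whether it holds a copy of mt-Atp8 is not known. All positions in the nucleus are given from M21. Pairs of gene and copy are printed over their first 60 bases to show how little separates them, with a base that differs in capitals. mt-Co2 (chrMT:7013-7072, plus strand) and Gm28661 (chr1:24615506-24615565, minus strand) were identical there, and mt-Nd3 (chrMT:9459-9518, plus strand) and Gm28438 (chr1:24613060-24613119, minus strand) differed by T3C, counted from 1 at the first base of mt-Nd3, with the base of mt-Nd3 first.
mt-Co2: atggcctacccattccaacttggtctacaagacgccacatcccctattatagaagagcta
Gm28661: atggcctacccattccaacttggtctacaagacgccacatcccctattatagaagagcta
mt-Nd3: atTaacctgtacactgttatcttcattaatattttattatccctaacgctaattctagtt
Gm28438: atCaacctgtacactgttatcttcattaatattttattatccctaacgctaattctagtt

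The libraries held 15718782 to 25371474 counts on genes, so a gene with a count of 0 may hold up to 3 counts, or 0.118 to 0.191 counts per 1000000 (CPM) before scaling, counting error alone considered. Library S23 had 1441 CPM of Xist and no count on the Y-linked genes, whereas the other 5 libraries had at most 0.553 CPM of Xist and 2772 to 4590 Y-linked counts. By these genes S23 was the only female library and all femur libraries were male. Sex was thus uneven between the sites, and its part in the results below was not tested. The summed level of 12 monocyte markers was 8169 to 15034 CPM in the femur libraries and 6951 to 12441 CPM in the mandible, and none of the 12 was called. Most of this sum in every library was Lyz2, at 7776, 4630 and 10579 CPM in femur S13, S15 and S18 and 5973, 7816 and 4620 CPM in mandible S16, S19 and S23. The log2 fold changes of 6 of the 12 were above 0. Markers of other cells are given as summed levels and counts of calls, where 3.88% of all tested genes were called higher and 1.3% lower in the mandible. Skeletal muscle markers, 11 of 11 called higher in the mandible, were at 6.45 to 47.3 CPM in the femur libraries and at 3716, 1685 and 5774 CPM in S16, S19 and S23. Markers of mesenchymal cells and osteoblasts were at 276 to 380 CPM against 7557 to 11744 CPM (7 of 8 called higher), and those of ameloblasts and odontoblasts at 0.221 to 2.63 against 5720 to 11223 CPM (6 of 7 called higher). Neutrophil markers were at 3865 to 33245 CPM against 3987 to 10425 CPM (1 of 10 called lower, with overlap), erythroid markers at 293 to 2049 against 132 to 228 CPM (4 of 10 called lower), and megakaryocyte markers at 559 to 894 against 73.4 to 106 CPM (6 of 7 tested called lower). The erythroid calls fell to 0 without S13, S16 or S19 and with a trend of gene length removed, and the erythroid median log2 fold change went from -2.41 to -0.97 without S13. The neutrophil call was lost when any library but S15 was left out and with the length trend removed. B cell markers were at 17.2 to 23.6 CPM against 23.7 to 33.8 CPM, without overlap (1 of 6 tested, Ebf1, called higher, and not called with any 1 library left out), and endothelial markers at 47.1 to 57.3 against 38.5 to 58.2 CPM, with overlap. No marker of the other lists named here was at 0 in every library. The part of these cells in the results below was not tested, and in bulk samples fewer cells of a type and less RNA per cell cannot be told apart.

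The share of mitochondrial transcripts overlapped between the sites, while rRNA outweighed mRNA 1.75-fold more in the femur libraries. The 37 genes held 10.2, 12.5 and 11.6% of all counts in femur S13, S15 and S18 and 8.12, 10.2 and 12.1% in mandible S16, S19 and S23. The log2 difference, mandible minus femur, was -0.19 (exact two-sided permutation test of log2 values, p = 0.4, n = 3 in each group). The groups overlapped, with S16 lowest and S15 highest. With 3 libraries on each side the smallest p of this test is 0.1, so none of the permutation tests given here could pass the threshold of 0.05.

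The rRNAs made up almost all of this. mt-Rnr1 and mt-Rnr2, which encode the 12S and the 16S rRNA of the mitochondrial ribosome, together held 9.77, 11.8 and 11.0% of the counts in the femur libraries and 7.42, 9.30 and 11.1% in the mandible (log2 difference -0.24, exact permutation p = 0.3). The 13 mRNAs held 0.460, 0.709 and 0.626% in the femur libraries and 0.702, 0.869 and 1.09% in the mandible (log2 difference 0.57, exact permutation p = 0.2). For both classes the groups overlapped, for the mRNAs only because S15 (0.709%) lay just above S16 (0.702%). Within the mitochondrial counts alone the classes separated the groups, and mRNAs were 4.50, 5.69 and 5.39% of them in the femur libraries and 8.64, 8.55 and 8.95% in the mandible.

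The ratio of rRNA to mRNA counts was therefore 21.2, 16.6 and 17.6 in the femur libraries and 10.6, 10.7 and 10.2 in the mandible, or 18.5 ± 2.46 against 10.5 ± 0.275 (SD, n = 3 in each group). The log2 difference was -0.81 and the groups did not overlap (exact permutation p = 0.1, the smallest possible, and 0.525 after Benjamini-Hochberg adjustment over 7 measures of the classes). The mandible libraries lay close together and the femur libraries farther apart, with S13 highest. Leaving out each library in turn kept the log2 difference between -0.88 and -0.70. The direction did not rest on the mRNAs that have an annotated copy on chromosome 1. Over the 6 mRNAs without such a copy the ratio was 41.0, 30.9 and 33.8 in the femur libraries and 18.9, 18.8 and 16.4 in the mandible. Among these 6, mt-Nd2 and mt-Nd5 share part of their sequence with other annotated nuclear transcripts. Copies outside annotated transcripts were not searched, among them a possible copy of mt-Atp8 in the gap between Gm28661 and Gm10925. Over mt-Co1 alone, the mRNA with the highest level, it was 53.4, 44.3 and 43.9 against 32.5, 31.4 and 34.5, a smaller log2 difference of -0.52 (exact permutation p = 0.1).

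Other abundant noncoding RNAs moved in part with this ratio. Rn18s, the 18S rRNA of the cytosolic ribosome, took 11.5, 7.49 and 12.2% of the counts in the femur libraries and 12.2, 5.35 and 4.81% in the mandible, so that mandible S16, whose rRNA to mRNA ratio was that of the other mandible libraries, had as much of it as femur S18. Rn7sk, a small nuclear RNA that restrains transcription elongation, was at 11961, 3131 and 7574 CPM in the femur libraries and 803, 1568 and 2320.5 CPM in the mandible, and was called lower (log2 fold change -2.27, SE 0.57, adjusted p = 0.044 by edgeR). That call was kept in 7 of 15 alternatives and lost in 8, among them RLE factors, no normalization factors, the length trend removed and 5 of the 6 fits with 1 library left out, with log2 fold changes from -2.72 to -1.33. Malat1, a nuclear long noncoding RNA, overlapped between the groups. How ribosomal RNA was removed or kept when the libraries were made is not given in the sources used here, and the part of these differences in the ratio was not tested.

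**Figure D1:**
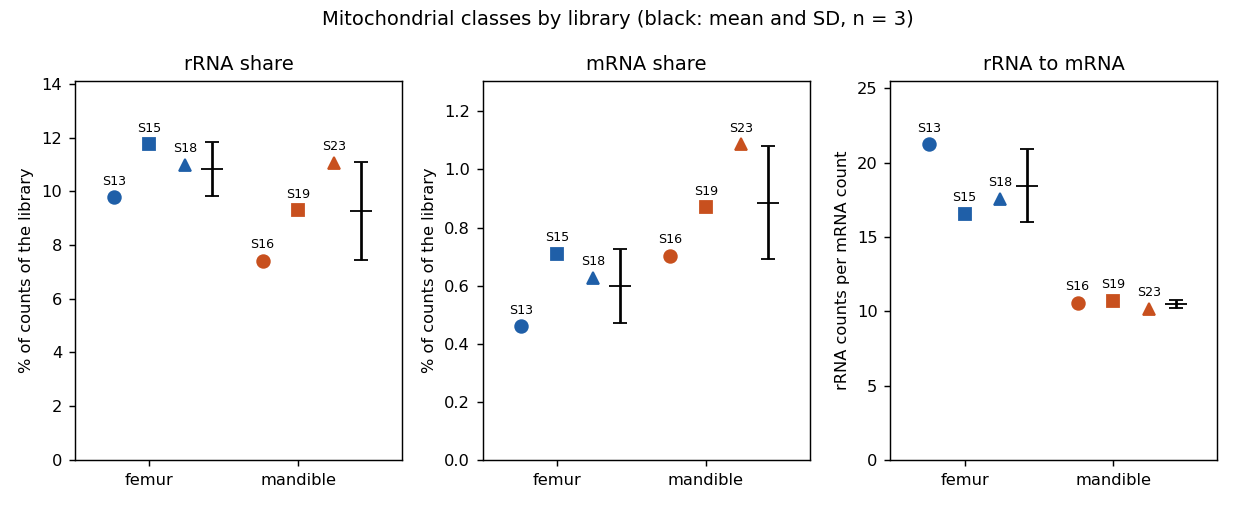
Each panel plots 1 measure by library, with femur in blue and mandible in orange: mitochondrial rRNA and mRNA as a percent of the counts of the library, and rRNA counts per mRNA count, each axis from 0, with the mean and SD (n = 3) in black. The shares of both classes overlap between the groups, whereas the ratio is 10.2 to 10.7 in the mandible and 16.6 to 21.2 in the femur.

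Levels of single genes are given as CPM after TMM scaling, divided by gene length in kilobases when genes are compared with each other. By the mean of the 6 libraries the order per kilobase began with mt-Rnr2 at 44462 and mt-Rnr1 at 31928 CPM per kilobase, whose ranges over the libraries overlapped. A wide gap followed, and mt-Co1 was next at 1658, ahead of mt-Cytb (1134), mt-Nd1 (951), mt-Nd5 (662), mt-Nd6 (635), mt-Nd2 (347), mt-Atp6 (309.6) and mt-Nd4 (255). From mt-Co1 to mt-Nd4 each gene's range overlapped that of the next. A second gap separated mt-Nd4 from mt-Co2 (75.3), mt-Co3 (54.1), mt-Atp8 (45.3), mt-Nd4l (13.7) and mt-Nd3 (10.1 CPM per kilobase), which again overlapped from one to the next. mt-Co1 and mt-Nd3, which both lie on the plus strand, thus stood at opposite ends of the order of the mRNAs.

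**Figure D2:**
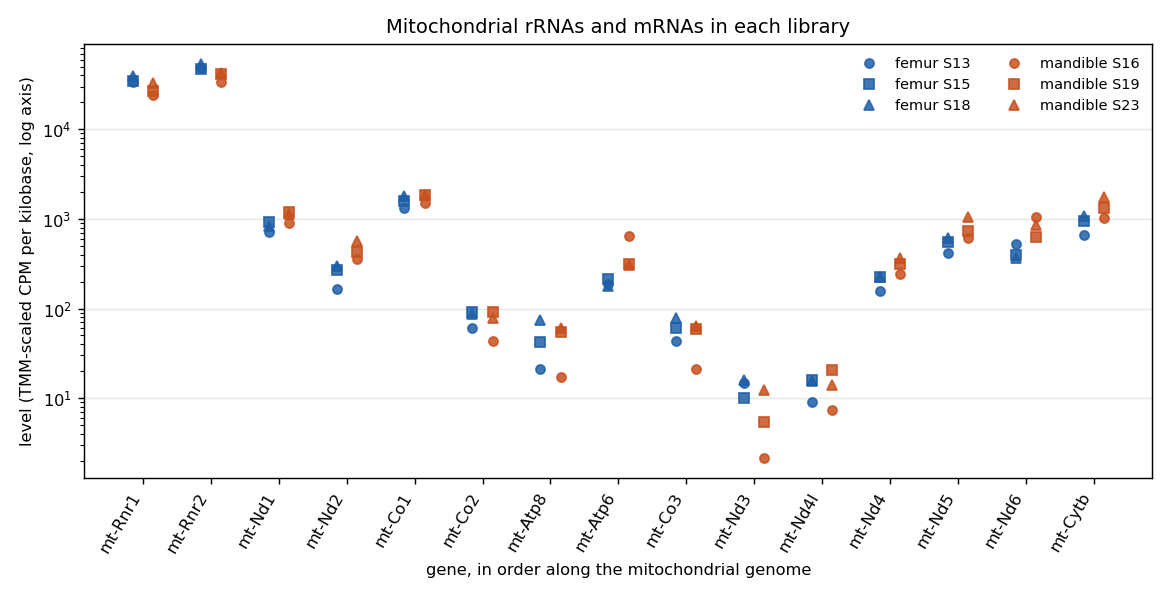
The level of each rRNA and mRNA is plotted as TMM-scaled CPM per kilobase on a log axis, in order along the mitochondrial genome, with 1 point per library (femur blue, mandible orange). The rRNAs lie above 24408 CPM per kilobase in every library, and mt-Co2, mt-Co3, mt-Atp8, mt-Nd3 and mt-Nd4l lie below 91.8 in every library.

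The order followed the sequence shared with nuclear copies in part. Each gene was cut into every window of 50 bases and each window was looked up in all other M21 transcripts. All windows of mt-Co2, 99.9% of mt-Co3, 99.5% of mt-Atp6, 98.8% of mt-Nd4l and 98.0% of mt-Nd3 occurred in another transcript, against 62.2% of mt-Nd4, 51.1% of mt-Co1, 8.19% of mt-Nd2, 7.61% of mt-Nd5, 1.04% of mt-Rnr2 and none of mt-Nd1, mt-Cytb, mt-Nd6, mt-Atp8 and mt-Rnr1. Windows of mt-Co1 and mt-Co2 were also found in the pseudogenes Gm13340 (411 windows of mt-Co1) and Gm13341 (224 windows of mt-Co2). The 5 mRNAs with over 90% of their windows shared had a median level of 54.1 CPM per kilobase (10.1 to 309.6), and the other 8 had 649 (45.3 to 1658). mt-Atp6 and mt-Atp8 did not follow this pattern. mt-Atp6 had 99.5% of its windows shared and stood at 309.6 CPM per kilobase, above mt-Nd4. mt-Atp8 had no window in another annotated transcript and stood at 45.3. With a length of 204 bases mt-Atp8 is the shortest mRNA. It is the only mRNA between mt-Co2 and mt-Atp6, whose copies leave a gap of 233 bases on chromosome 1 that was not compared here. A copy of mt-Atp8 in that gap would therefore not have been found.

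When only windows found nowhere else were counted as length, mt-Nd4 came to 700.2 CPM per 1000 windows, beside 737 for mt-Nd5 and 701 for mt-Nd6, whereas over all of its windows it had 264 against 681 and 701. mt-Co1 came to 3503 CPM per 1000 such windows and was the highest of the 8 mRNAs with at least 100 such windows. These values keep all counts of a gene, so they are too high wherever reads of shared windows were counted. mt-Atp6 had 3 windows found nowhere else and 25323 counts over all libraries. How reads that fit several places were counted is not given in the sources used here, and the part of such reads in the low levels was not tested. The copies themselves had few counts, 708 to 985 per library for the 7 summed. In TMM-scaled CPM their sum was 39.1, 38.7 and 32.5 in the femur libraries and 41.6, 46.8 and 42.5 in the mandible, all mandible libraries higher, and none of the 6 tested copies was called. Of the counts of a gene and its copy the copy held between 0.296% (Gm29216 of mt-Co1) and 11.1% (Gm28437 of mt-Co3).

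**Figure D3:**
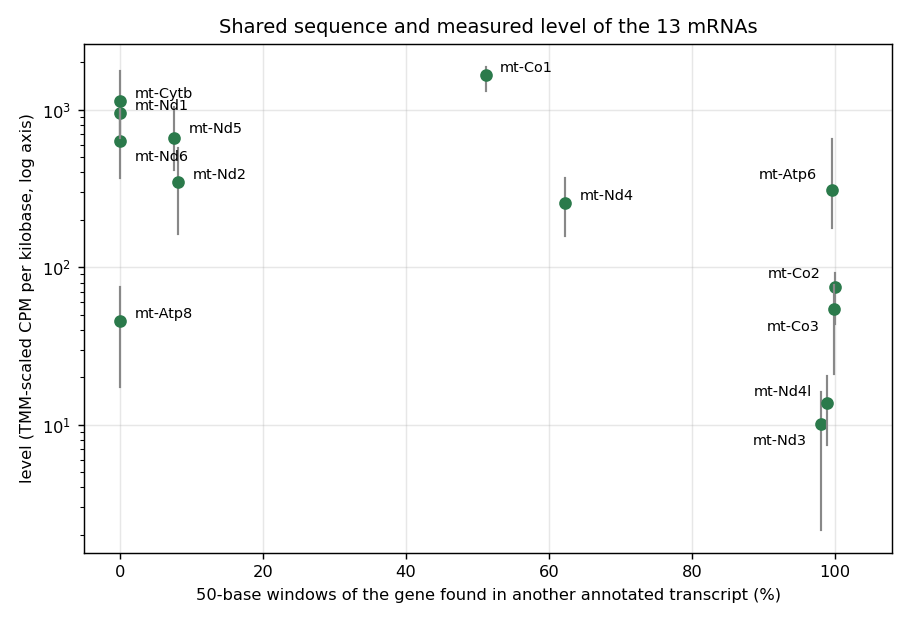
For each of the 13 mRNAs the percent of its 50-base windows found in another annotated transcript (x axis) is plotted against its level in TMM-scaled CPM per kilobase (log y axis), with the mean of the 6 libraries as a point and their range as a line. mt-Co2, mt-Co3, mt-Nd4l and mt-Nd3, with at least 98.0% of their windows shared, have means of 75.3 or less, while mt-Atp6 has 309.6 with 99.5% shared and mt-Atp8 has 45.3 with none.

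Of the 37 genes, 22 passed the filter on low counts and were tested between the sites, which were all 13 mRNAs, both rRNAs and 7 tRNAs. A call required an at least 2-fold change and, in the quasi-likelihood test of edgeR, a p under 0.05 after Benjamini-Hochberg adjustment over all genes. None of the 22 was called, where 5.18% of all 18114 tested genes were called. At an unadjusted p under 0.05 there were 3 (mt-Atp6, mt-Nd6 and mt-Nd2, all mRNAs), where 16.4% of all genes were past it, and DESeq2 called 2 of them (mt-Atp6 and mt-Nd6). In 8 of the 22 the groups did not overlap in TMM-scaled CPM, against 24.2% of all tested genes. These were mt-Atp6, mt-Nd2, mt-Nd4, mt-Nd5 and mt-Nd6, higher in the mandible, and mt-Rnr1, mt-Rnr2 and the tRNA gene mt-Ty, lower. This count depended on the scaling. In plain CPM of the library total, an alternative chosen after seeing the data, 4 of the 22 did not overlap, against 23.5% of all tested genes, namely mt-Atp6, mt-Nd2 and mt-Nd6, higher, and mt-Ty, lower. The log2 fold changes of the 13 mRNAs had a median of 0.39, with 9 above 0, where the median of all tested genes was -0.038. The median of the mRNAs was 0.26 without mandible S19, whose value was the lowest of the fits with 1 library left out.

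In TMM-scaled CPM both rRNAs were lower in every mandible library than in every femur library, in plain CPM they overlapped, and neither was called. mt-Rnr1 (chrMT:70-1024) was at 31934, 33061 and 37824 CPM in the femur libraries and at 23309, 25299.6 and 31521 CPM in the mandible, a log2 fold change of -0.36 (SE 0.50, adjusted p = 0.83 by edgeR). mt-Rnr2 (chrMT:1094-2675) was at 76373, 74206 and 85311 CPM in the femur libraries and 53149.8, 65115 and 67877 CPM in the mandible, a log2 fold change of -0.34 (SE 0.58, adjusted p = 0.87 by edgeR). In both, S23 was the mandible library closest to the femur. The ratio of mt-Rnr2 to mt-Rnr1 was 2.39, 2.24 and 2.26 in the femur libraries and 2.28, 2.57 and 2.15 in the mandible, with no difference beyond the spread (exact permutation p = 0.8). When a trend with gene length was removed from each library, a correction chosen after seeing the data, mt-Rnr1 turned to 0.16 and mt-Rnr2 stood at -0.10, while the median of the mRNAs rose to 0.91, so the sign of mt-Rnr1 depended on this correction, and both rRNAs were below the median of the mRNAs with and without it.

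Complex I, the NADH dehydrogenase that feeds electrons into the chain, takes 7 of its subunits from the mitochondrial genome. mt-Nd2, which encodes a core subunit of the membrane arm, was at 169, 278 and 307 CPM in the femur libraries and 369, 449 and 589.6 CPM in the mandible, or 252 ± 72.6 against 469 ± 112 CPM (SD, n = 3). Its log2 fold change was 0.90 (SE 0.32, adjusted p = 0.17 by edgeR). All mandible libraries were above all femur libraries, with S13 lowest and S23 highest. mt-Nd6, the membrane arm subunit encoded on the minus strand, was at 269, 206.5 and 192 CPM in the femur libraries and 546, 322 and 442 CPM in the mandible, a log2 fold change of 0.97 (SE 0.30, adjusted p = 0.10 by edgeR). Here too the groups did not overlap, and S16 was the highest.

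mt-Nd6 did not move apart from the plus-strand mRNAs by more than the spread. It had 5.57, 3.30 and 2.82 counts per 100 counts of the other 12 mRNAs in the femur libraries and 8.16, 3.96 and 4.74 in the mandible (log2 difference 0.52, exact permutation p = 0.3). S13 and S16 had the highest value of their group, and the groups overlapped. Without S16 the log2 difference was 0.22. Against only mt-Nd5 and mt-Cytb, its neighbours on the other strand, the difference was 0.36 (exact permutation p = 0.5).

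The remaining complex I mRNAs divided by their levels. mt-Nd5 was at 760.1, 1019 and 1110.2 CPM in the femur libraries and 1117, 1346 and 1897 CPM in the mandible (log2 fold change 0.59, SE 0.34, adjusted p = 0.46 by edgeR), and mt-Nd4 at 218, 311 and 311 against 331, 431 and 507 CPM (0.60, SE 0.29, adjusted p = 0.35). Both encode subunits of the proton-pumping membrane arm, and in both the lowest mandible library, S16, was just above the highest femur library, and just below it in plain CPM. mt-Nd1, which encodes the subunit where ubiquinone enters, was at 676, 891 and 796 CPM against 852, 1153 and 1093 CPM (0.39, SE 0.30, adjusted p = 0.63), and its groups overlapped. The short mRNAs mt-Nd3 and mt-Nd4l, both almost wholly shared with nuclear copies, rested on 15 to 127 and on 44 to 128 counts per library. mt-Nd3 was at 5.14, 3.50 and 5.61 CPM in the femur libraries and 0.751, 1.90 and 4.29 CPM in the mandible (log2 fold change -1.04, SE 0.82, adjusted p = 0.64). mt-Nd4l was at 2.71, 4.75 and 4.64 against 2.20, 6.08 and 4.12 CPM (0.04, SE 0.69). Both overlapped, with S16 the lowest library.

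Complex III, which passes electrons from ubiquinol to cytochrome c, has 1 mitochondrial subunit, cytochrome b. Its mRNA mt-Cytb was at 760.2, 1073 and 1228 CPM in the femur libraries and 1168, 1530.5 and 2025 CPM in the mandible, or 1020.3 ± 238 against 1574 ± 431 CPM (SD, n = 3). The log2 fold change was 0.63 (SE 0.35, adjusted p = 0.44 by edgeR), and femur S18 lay above mandible S16.

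Complex IV, cytochrome c oxidase, has its 3 core subunits encoded by mt-Co1, mt-Co2 and mt-Co3, of which the first carries the oxygen-binding centre. mt-Co1 was at 2029.55, 2420.1 and 2804 CPM in the femur libraries and 2353, 2877 and 2882 CPM in the mandible, or 2418 ± 387 against 2704 ± 304 CPM (SD, n = 3), which is 0.16 on the log2 scale (SE 0.34, adjusted p = 0.91 by edgeR). mt-Co2 was at 41.8, 62.3 and 58.7 CPM against 29.7, 62.8 and 53.8 CPM (-0.15, SE 0.32), and mt-Co3 at 34.4, 47.2 and 60.9 CPM against 16.5, 45.8 and 49.7 CPM (-0.35, SE 0.40). All 3 overlapped, and for mt-Co2 and mt-Co3 the sign came from S16. Without that library they stood at 0.11 and 0.01.

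Complex V, the ATP synthase, gave the largest log2 fold change among the mRNAs and one of the smallest. mt-Atp6, which encodes the subunit through which protons enter, was at 128, 147 and 121 CPM in the femur libraries and 442, 216 and 211 CPM in the mandible, or 132 ± 13.1 against 289.5 ± 132 CPM (SD, n = 3). The log2 fold change was 1.13 (SE 0.33, adjusted p = 0.082 by edgeR). All mandible libraries were above all femur libraries, but S16 was at more than S19 and S23 summed, and without it the log2 fold change was 0.70. The copy Gm10925 had 12.8, 11.5 and 6.85 CPM in the femur libraries and 25.97, 17.9 and 14.0 CPM in the mandible and was also highest in S16, and mt-Atp6 had 10.03 to 17.7 counts per count of this copy in the femur libraries and 12.1 to 17.01 in the mandible. mt-Atp8, which overlaps mt-Atp6 at its end, was at 4.31, 8.66 and 15.2 CPM against 3.55, 11.2 and 12.5 CPM (log2 fold change -0.05, SE 0.60, adjusted p = 0.98), with the lowest value of all in S16, where mt-Atp6 was highest.

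mt-Atp6 was the mitochondrial gene most often called when the processing was changed. It was called by DESeq2 (adjusted p = 0.0052), without a filter on low counts (adjusted p = 0.030 by edgeR), with at least 10 counts required in every library (adjusted p = 0.048 by edgeR) and with the length trend removed (log2 fold change 1.91, adjusted p = 0.024 by edgeR). mt-Nd6 was called by DESeq2 (adjusted p = 0.0059) and with the length trend removed (log2 fold change 1.84, adjusted p = 0.020 by edgeR). In each fit with 1 library left out none of the mitochondrial genes was called.

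**Figure D4:**
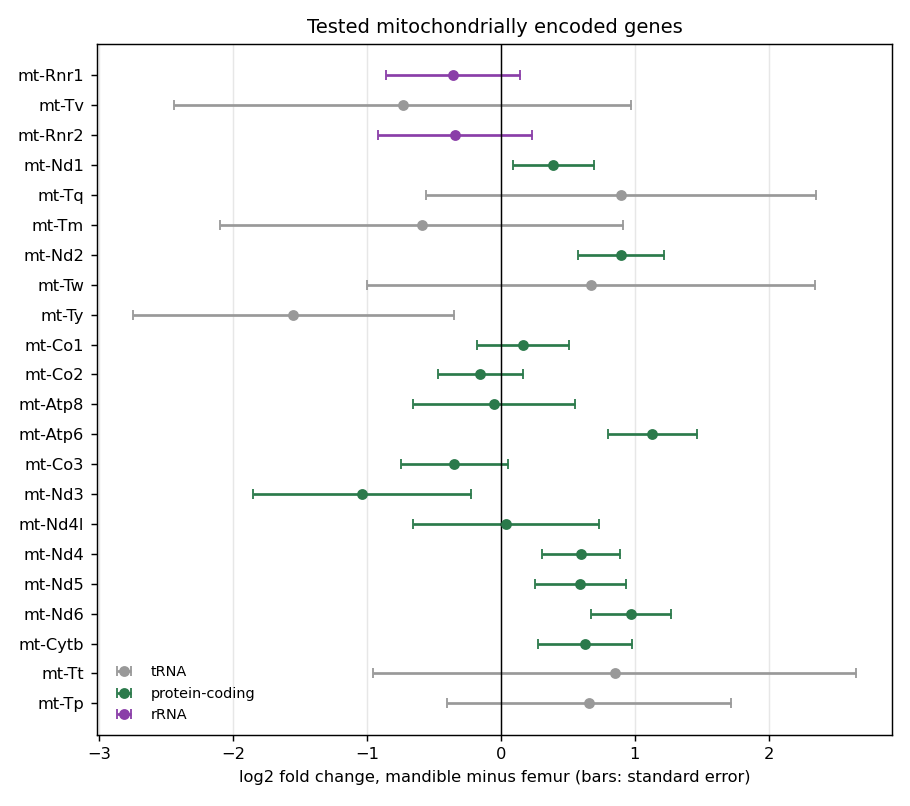
The log2 fold change of each tested mitochondrial gene, mandible minus femur, is plotted with its standard error, in order along the mitochondrial genome and coloured by class. The mRNAs mt-Atp6 (1.13), mt-Nd6 (0.97) and mt-Nd2 (0.90) lie farthest to the right among the mRNAs, both rRNAs lie left of 0, and the tRNAs have the widest bars.

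In the make-up of the mitochondrial mRNA, 5 of the 13 took shares that did not overlap between the sites. mt-Co1 was 39.8, 37.4 and 40.0% of the counts of the 13 mRNAs in the femur libraries and 32.6, 34.0 and 29.5% in the mandible, without overlap. mt-Nd2 was 3.32, 4.29 and 4.38% against 5.10, 5.31 and 6.03%, also without overlap and in the other direction. The shares of mt-Co2, mt-Co3 and mt-Nd3 were lower in every mandible library, and those of the other 8 mRNAs overlapped. For the 5 that did not overlap the exact permutation p was 0.1, the smallest possible, and 0.26 after Benjamini-Hochberg adjustment over the 13. Shares of a whole depend on each other. Against the geometric mean of the 13, mt-Co1 overlapped between the groups (log2 difference -0.07), whereas mt-Nd2 remained higher (0.68) and mt-Co2, mt-Co3 and mt-Nd3 lower (-0.44, -0.71 and -1.59). mt-Nd4, mt-Nd5 and mt-Cytb were then higher without overlap (0.35, 0.33 and 0.38). Among the 6 mRNAs without an annotated copy on chromosome 1, mt-Nd2 was again higher without overlap (0.31).

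By shared sequence, 5 mRNAs had over 90% of their windows in another annotated transcript. Their median log2 fold change was -0.15, with 2 above 0 and values from -1.04 (mt-Nd3) to 1.13 (mt-Atp6). The other 8 had a median of 0.60, with 7 above 0 and values from -0.05 (mt-Atp8) to 0.97 (mt-Nd6). Adding the counts of each chromosome 1 copy to its gene, an alternative chosen after seeing the data, left every gene's sign as it was, with mt-Atp6 at 1.11 and mt-Nd3 at -0.999.

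The tRNAs, which are short, had few counts in these libraries. All 22 together had 227, 258 and 263 counts in the femur libraries and 142, 239 and 277 counts in the mandible. In 6 of them (mt-Tn, mt-Tc, mt-Tr, mt-Ts2, mt-Tl2 and mt-Te) no library had a count, 9 had 1 to 18 counts over all libraries and were not tested, and 7 were tested. mt-Ty, mt-Tp and mt-Tq, which carry tyrosine, proline and glutamine, had 408, 297 and 243 counts, more than the other 19 together. Per kilobase these were at 51.1, 36.6 and 28.9 CPM by the mean of all libraries. That was above mt-Nd4l (13.7) and mt-Nd3 (10.1), the lowest mRNAs, and below mt-Co3 (54.1). They are printed 5′ to 3′ from the M21 transcripts (minus strand, DNA letters), with the anticodon in capitals, since most counts of this class fell on them. As for mt-Nd6, their reads and those of transcripts that run through them on the other strand cannot be told apart. A read of 50 bases covers most of such a gene. They lie at chrMT:5260-5326, chrMT:15356-15422 and chrMT:3772-3842.
mt-Ty: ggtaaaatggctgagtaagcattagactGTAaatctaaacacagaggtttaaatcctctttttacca
mt-Tp: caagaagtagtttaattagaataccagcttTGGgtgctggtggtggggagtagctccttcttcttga
mt-Tq: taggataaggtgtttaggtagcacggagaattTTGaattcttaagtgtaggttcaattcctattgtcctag

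Single tRNAs varied more between libraries of 1 site than between the sites. mt-Ty had 142, 78 and 88 counts in the femur libraries and 0, 51 and 49 in the mandible, the only tRNA whose groups did not overlap in CPM (adjusted p = 0.63 by edgeR). mt-Tp had 13, 89 and 20 counts against 16, 91 and 68. mt-Tq had 13, 18 and 62 counts against 0, 57 and 93. Library S16 thus had no count of mt-Ty or mt-Tq, and none of mt-Tw (tryptophan), but 60 of the 112 counts of mt-Tt (threonine), of which S13 had none. mt-Tm (methionine) and mt-Tv (valine) had 80 and 75 counts in all. The summed tRNA counts, as a share of the library, gave no difference beyond the spread (exact permutation p = 1).

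The mRNAs were next set against the nuclear genes of the same complexes. The nuclear lists, as all lists here, were drawn up with earlier results of these data known, and their lower level in the mandible is not independent of those results. Of 37 nuclear complex I genes 4 were called lower and none higher, where 1.3% of all tested genes were called lower and 3.88% higher, and the median log2 fold change was -0.77 with none above 0. Complex III had 0 of 9 called (median -0.71), complex IV 2 of 11 lower (-1.05) and complex V 3 of 16 lower (-0.86). At an unadjusted p under 0.05 there were 19, 5, 9 and 9, where 16.4% of all tested genes were past it. Complex II, the succinate dehydrogenase that has no mitochondrial subunit, had 0 of 4 called and a median of -0.24.

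The genes called in complex I were Ndufb1, Ndufb4 and Ndufb6, accessory subunits of the membrane arm, and Ndufab1, the mitochondrial acyl carrier protein. Ndufb1 was at 126, 65.6 and 74.6 CPM in the femur libraries and 25.4, 24.6 and 30.1 CPM in the mandible (log2 fold change -1.73, SE 0.30, adjusted p = 0.0063 by edgeR). Ndufb4 was at 74.2, 35.2 and 35.1 against 5.75, 14.1 and 13.7 CPM (-2.11, SE 0.44, adjusted p = 0.016). In both every mandible library was below every femur library. In complex IV the called genes were Cox7b and Cox7a2, small subunits, with log2 fold changes of -1.71 and -1.31, and in complex V they were Atp5k, Atp5e and Atp5g3, with -1.56, -1.35 and -1.13. Atp5a1, the alpha subunit of the catalytic part, stood at 0.01.

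The mitochondrial mRNAs therefore stood higher against the listed nuclear genes in the mandible for every complex that is made from both genomes. For complex I, the 7 mitochondrial mRNAs had 0.783, 1.696 and 1.15 counts per count of the 37 nuclear genes in the femur libraries and 2.39, 2.55 and 3.196 in the mandible, a 2.34-fold difference (log2 1.23). For complex III the values were 0.824, 1.82 and 1.38 against 2.30, 2.81 and 4.02 (log2 1.22). For complex IV they were 1.14, 2.64 and 2.02 against 4.37, 4.27 and 4.22 (log2 1.23). For complex V, where mt-Atp6 and mt-Atp8 are few beside 16 nuclear genes, they were 0.0357, 0.0848 and 0.0441 against 0.236, 0.114 and 0.130 (log2 1.57). In all 4 complexes every mandible library lay above every femur library, S13 was lowest, and S15 came closest to the mandible (exact permutation p = 0.1 in each, the smallest possible, and 0.1 after Benjamini-Hochberg adjustment over the 4). Leaving out 1 library kept each log2 difference between 0.89 and 1.94.

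The nuclear side of the ratios had its own limits and its own spread. The complex IV list holds Cox6a1, Cox7a2 and Cox8a but not their other forms Cox6a2, Cox7a1 and Cox8b. Atpif1, an inhibitor of the synthase, is in the complex V list. It was at 683, 201 and 311 CPM in the femur libraries and 152, 135 and 135 CPM in the mandible. How these choices moved the ratios was not tested. The summed nuclear complex I genes were at 2681, 1599.7 and 2373 CPM in the femur libraries and 1344, 1455 and 1419.6 CPM in the mandible, and those of complex IV at 1841, 957 and 1446 against 548, 699.6 and 708 CPM. S15 was the lowest femur library in both. After removal of the length trend the medians of the nuclear lists were -0.52, -0.32, -0.77 and -0.85 for complexes I, III, IV and V, and the median of the mitochondrial mRNAs was 0.91. The nuclear calls with the length trend removed were 2 in complex I, 0 in complex III, 0 in complex IV, where Cox7b and Cox7a2 were both lost, and 1 in complex V. They also depended on single libraries, and were 1 without S13 or S19 and 10 without S15 for complex I, 0 without S19 and 6 without S15 for complex IV, and 0 without S13 or S19 and 8 without S15 for complex V. Skeletal muscle, whose markers separated the sites, is itself rich in mitochondria. S19 had the least of those markers among the mandible libraries, 1685 CPM, and its ratios lay between those of S16 and S23 in complexes I, III and IV, while in complex V it had the lowest ratio of the 3 (0.114). The part of muscle RNA in the ratios was not tested.

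**Figure D5:**
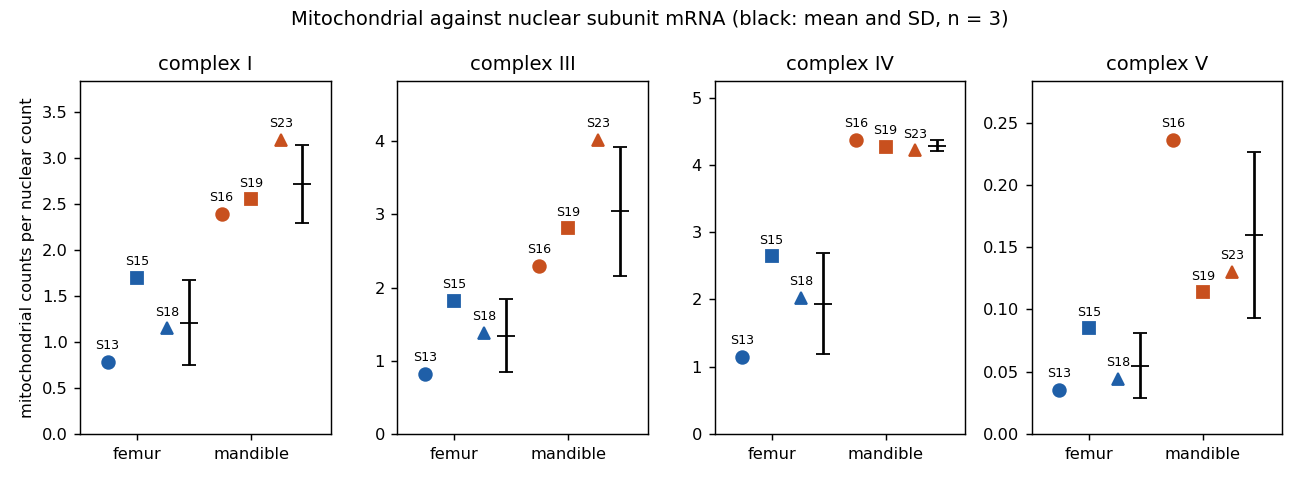
For each complex made from both genomes, the counts of its mitochondrial mRNAs per count of its nuclear mRNAs are plotted by library (femur blue, mandible orange, y axis from 0), with the mean and SD (n = 3) in black. Every mandible library lies above every femur library in the 4 panels, from 2.39 to 3.196 against 0.783 to 1.696 in complex I, and complex V has its highest value in S16 (0.236).

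The nuclear genes that make, process and translate mitochondrial RNA were called in neither direction in the main test. Of all tested genes 5.18% were called and 16.4% had an unadjusted p under 0.05. Of 18 genes of mitochondrial transcription and DNA replication none was called and none had an unadjusted p under 0.05, 3 of the 18 log2 fold changes were above 0, and the median was -0.48. Among them, Polg, the DNA polymerase of mitochondria, was at 109 ± 22.8 CPM in the femur libraries and 94.7 ± 13.6 CPM in the mandible (SD, n = 3). Tfam, which packs the mitochondrial genome and starts its transcription, was at 41.5, 22.9 and 42.6 CPM against 23.97, 32.9 and 25.9 CPM (log2 fold change -0.37, SE 0.32, adjusted p = 0.68 by edgeR), with S15 below the mandible libraries. The summed level of the 18 was 398, 459.6 and 356 CPM in the femur libraries and 338, 327 and 339 CPM in the mandible, without overlap.

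Of 42 genes that process and stabilise mitochondrial RNA none was called, against 5.18% of all tested genes. An unadjusted p under 0.05 was found for 2, against 16.4% of all tested genes. Of the 42 log2 fold changes 8 were above 0, and the median was -0.32. Lrpprc, which binds and stabilises the mitochondrial mRNAs, was at 71.4, 60.1 and 56.2 CPM in the femur libraries and 77.5, 75.0 and 54.4 CPM in the mandible (log2 fold change 0.14, SE 0.25, adjusted p = 0.88 by edgeR). Grsf1, a protein of the mitochondrial RNA granules, stood at 0.13 and Dhx30, a helicase needed to assemble the mitochondrial ribosome, at 0.17. All 3 overlapped between the sites. The summed level of the 42 was 878 to 980 CPM in the femur libraries and 717 to 820 CPM in the mandible, without overlap.

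Of 17 factors of mitochondrial translation and of 20 mitochondrial tRNA synthetases none was called, with medians of -0.17 and -0.24. At an unadjusted p under 0.05 there were 3 and 2, against 16.4% of all tested genes. Of the 17, Mss51 was called higher with DESeq2, without a filter on low counts, with the length trend removed and without S15, and of the synthetases Mars2 was called lower with the length trend removed (both named after their values were seen). The summed level of the 17 was 352 to 377 CPM in the femur libraries and 306 to 329 CPM in the mandible, without overlap. That of the 20 synthetases was 2554, 1688 and 3137 CPM in the femur libraries and 3342, 2235 and 1302 CPM in the mandible, with overlap. Most of it in every library was Lars2, given below, so this overlap does not describe the other synthetases. Of the 20 log2 fold changes 5 were above 0. Mtif2, the initiation factor, was at 42.6 ± 5.96 against 37.2 ± 8.78 CPM, and Gfm1, an elongation factor, at 35.4 ± 5.67 against 36.6 ± 9.94 CPM (SD, n = 3 in each group). Lars2, which charges the leucine tRNAs, stood far above the other synthetases, at 2225, 1276 and 2815 CPM in the femur libraries and 3031, 1960.5 and 1047 CPM in the mandible, where Iars2, the next, was at 49.1 ± 3.91 and 46.2 ± 11.7 CPM. The range of Lars2 within each site was wider than the difference between the sites (log2 fold change -0.06, SE 0.46). Lars2 was highest in S16, S18 and S13, the libraries with the most Rn18s, and lowest in S23, where Rn18s was also lowest. What part of the counts on this gene comes from its mRNA was not tested.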

How the data were processed

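RNA of 6 monocyte libraries was sequenced as paired-end reads, trimmed, mapped by the authors with HISAT2 2.1.0 to a genome named as GRCm38, and counted on genes with featureCounts. The deposited values are raw counts per gene and library, with no normalization by the authors. The featureCounts version, its strand and multi-mapping settings and the library kit are not given in the sources used here. For the comparison of sites, edgeR 4.0.16 was run in R 4.3.3 without covariates, using its filterByExpr (10 counts, and 15 in total), TMM scaling and the quasi-likelihood test at a prior count of 0.125, and p-values were adjusted by Benjamini-Hochberg over the 18114 tested genes. Calls needed an adjusted p under 0.05 together with an at least 2-fold change, and the SE was taken from the log2 fold change and the F statistic. Shares, ratios and compositions were compared by exact two-sided permutation tests of log2 values (scipy 1.17.1). The tests were tried on simulated data. Mitochondrial intervals of the table equalled those of GENCODE M21 in 37 of 37 genes. Nuclear positions of the table did not follow GRCm38, so those of the copies, and all sequences, were taken from M21, and only its annotated transcripts were searched for shared windows.

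The members and the lists were chosen with earlier results of these data known. Text names all mitochondrial mRNAs and rRNAs, tested tRNAs, and in each list the 3 most abundant members and as many as 3 of those called, taken by their p, of which some are left to counts and 1 is not reported here. Ndufb6, the fourth called gene of complex I, was named after its value was seen. In the lists Rn18s stands for the entry Rn18s-rs5 and Atp5f1 for Atp5pb. Alternatives were TMM without mitochondrial genes and Rn18s, library totals alone, RLE factors, DESeq2 1.42.0, limma-voom (limma 3.58.1), other filters on low counts, and each library left out. A loess correction for gene length (span 0.4), the copies added to their genes, and ratios over other sets of mRNAs were chosen after seeing the data.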

Additional observations from a re-analysis of the deposited data

How the results depend on the processing

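No paired analysis was possible because the labels name no animal, so libraries of the 2 sites from the same animal, if any, could not be matched. Over all genes, 1547 were called with DESeq2, 1590 without a filter on low counts, and 434 to 1565 with 1 library left out, lowest without S19 and highest without S15. Of the mitochondrial genes 2 were called with DESeq2, 1 without a filter, 1 with at least 10 counts in every library, 2 with the length trend removed, and 0 under RLE factors, no normalization factors, TMM without mitochondrial genes and Rn18s, limma-voom and the copies added. The rRNA to mRNA ratio and the 4 ratios of mitochondrial to nuclear mRNA were formed from raw counts within a library. The choice of scaling or test program therefore does not enter them. Because their groups did not overlap, leaving out 1 library could change their size but not their direction.

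The following log2 differences changed sign. The tRNA share ranged from -0.36 to 0.32 with 1 library left out, and mt-Rnr2 to mt-Rnr1 from -0.0514 to 0.0772. With the length trend removed mt-Rnr1 stood at 0.16, mt-Co2 at 0.46, mt-Atp8 at 0.93, mt-Co3 at 0.20, mt-Tv at 0.92 and mt-Tm at 0.87. With limma-voom mt-Tq stood at -0.87, mt-Tw at -0.78 and mt-Nd4l at -0.0636, and without normalization factors mt-Atp8 at 0.0925. With 1 library left out mt-Co2 ranged from -0.43 to 0.11, mt-Co3 from -0.66 to 0.0110, mt-Atp8 from -0.40 to 0.49, mt-Nd4l from -0.40 to 0.35, mt-Tv from -2.81 to 0.0853, mt-Tq from -0.13 to 1.78, mt-Tw from -0.42 to 1.36 and mt-Tt from -1.37 to 1.84. The share of mt-Nd1 among the mRNAs was 0.15 against their geometric mean, and that of mt-Nd5 was -0.0303 among the 6 mRNAs without an annotated copy on chromosome 1. The causes were not tested, and these genes were not called in any of the fits.

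With 3 libraries a site, and tRNAs of at most 408 counts in all, differences under the spread between libraries could not be seen at this depth. Values of the mRNAs shared with nuclear copies rest on how shared reads were assigned.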

Other observations

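Genes of mitochondrial number and turnover were read beside the mitochondrial transcripts. Of 17 genes of mitochondrial biogenesis and mass none was called in the main edgeR test, where 5.18% of all tested genes were called. At an unadjusted p under 0.05 there were 5, against 16.4% of all tested genes. The median log2 fold change of the 17 was -0.15. Other settings called up to 2 higher and up to 2 lower: 2 higher with DESeq2, 2 higher and 2 lower without a filter on low counts, 1 higher and 2 lower without S15, and 1 higher each with limma-voom, no normalization factors and at least 10 counts in every library. Slc25a4, the ADP/ATP carrier that prevails in muscle and heart, was at 87.6, 49.2 and 100.6 CPM in the femur libraries and 164, 149.5 and 289 CPM in the mandible (log2 fold change 1.34, SE 0.35, adjusted p = 0.053 by edgeR). The mandible libraries were all above the femur libraries, and S23, which had the highest summed skeletal muscle markers (5774 CPM), was the highest. Slc25a5, the carrier of most other tissues, was at 364, 191 and 429 CPM in the femur libraries and 130.3, 218 and 146 CPM in the mandible (-0.996, SE 0.35, adjusted p = 0.16), with overlap. Hspa9, the chaperone that pulls proteins into the matrix, was at 138 ± 38.4 against 188 ± 50.3 CPM (SD, n = 3 in each group).

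Of 11 mitophagy genes 2 were called higher in the mandible and none lower, where 3.88% of all tested genes were called higher and 1.3% lower, with a median of 0.07. Calcoco1, an autophagy receptor, was at 16.9, 13.9 and 19.04 CPM in the femur libraries and 41.5, 34.7 and 46.3 CPM in the mandible (log2 fold change 1.30, SE 0.29, adjusted p = 0.025 by edgeR). Pink1, the kinase that marks damaged mitochondria, was at 33.2, 23.9 and 34.1 CPM against 71.9, 66.3 and 61.8 CPM (1.13, SE 0.26, adjusted p = 0.028). In both the groups did not overlap. With the length trend removed 0 of the 11 were called, and 0 to 1 were called higher with 1 library left out, 1 only without S15. Bnip3l, the receptor that removes mitochondria from maturing red cells, was at 194, 62.1 and 179.7 CPM in the femur libraries and 92.4, 120.4 and 73.5 CPM in the mandible, where erythroid markers summed to 2049, 293 and 379 CPM in the femur libraries and 228, 132 and 195 CPM in the mandible. Its groups overlapped, and the part of erythroid RNA was not tested.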
